A study of Mus musculus with 12 samples.

Results

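Oxidative phosphorylation subunits are the proteins of the 5 enzyme complexes of the inner mitochondrial membrane that turn the energy of NADH and succinate into ATP. They were taken by name on the array: every probe whose gene name begins with Nduf, Uqcr or Atp5, with Cox followed by a digit from 4 to 8, or is Sdha, Sdhb, Sdhc or Sdhd. This gave 134 of 55681 probes, for 90 gene names. Of these, 83 encode subunits of complexes I to V and 7 encode other proteins that share the prefix. The rule itself reads names and no measured value. After the filter on dim probes, 87 of the 90 members were among the 18101 genes tested, 80 of them subunits. Cox7b2 and Cox8c were well above background on none of the 12 arrays and Cox8b on 1, so these 3 members were not tested. Cox6a2 passed the filter through the tumour arrays alone, so a higher level there was a condition of its test, and its calls are given as a description that supports nothing.

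RNA came from liver tissue of F2 males of the C3H/HeN strain, about 74 weeks old. In the arsenite groups the F0 grandmother had been given sodium arsenite at 85 ppm in her drinking water between gestation days 8 and 18. Control F0 mothers drank plain tap water. The F0 exposure fell in the gestation of the F1 mice, and neither F1 nor F2 mice of any group were given arsenite themselves. F1 males and females were mated at 10 weeks. The 12 one-colour arrays form 4 groups of 3: tumours of the arsenite line (arsenite tumour), the non-tumour tissue of that line (arsenite non-tumour), its normal liver (arsenite normal), and the non-tumour tissue of the control line (control non-tumour). Tumours of the control line were not analysed here, so what a tumour of a mouse without arsenite in its ancestry shows is outside these data. The labels do not say which arrays come from the same mouse, and p-values measure the spread between the numbered samples of a group.

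Electrons enter the chain at complex I (NADH dehydrogenase) or complex II (succinate dehydrogenase), pass through coenzyme Q to complex III (cytochrome bc1) and through cytochrome c to complex IV (cytochrome c oxidase), and the proton gradient drives complex V (ATP synthase). Nuclear genes encode all of complex II and most subunits of the others, and mitochondrial DNA (mtDNA) encodes a small set of core subunits of complexes I, III, IV and V. Hepatocytes are rich in mitochondria and use this ATP for urea, glucose and bile acid synthesis. A level below is the log2 of a probe's processed signal relative to the 75th percentile of its array, and a difference is that of 2 group means on the same log2 scale, with its standard error (SE). A gene is called at an adjusted p under 0.05 in limma's fit over all 12 arrays, the p-values being adjusted over the whole array by Benjamini-Hochberg. The array gives relative levels of 1 probe between samples, so the levels of different genes are not compared.

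The tumours gave lower signals for nearly the whole set. Against arsenite non-tumour liver, 73 of the 80 subunits fell and 2 rose, where 30% of all genes tested were called lower and 17.1% higher. The median difference over the 80 subunits was -0.71 (61% of the non-tumour level), against -0.13 over all genes tested, with quartiles of -0.85 and -0.5 for the subunits and -0.48 and 0.26 for all genes tested. On all 3 tumour arrays 72 of the 80 lay below each of the other 9 arrays, which 28% of all genes tested did. The median was -0.71 for the 36 subunits of complex I, -0.75 for 4 of complex II, -0.68 for 8 of complex III, -0.75 for 17 of complex IV and -0.69 for 15 of complex V. The subunits called higher were Cox6b2 and Cox6a2, the second of which entered the test through the tumours alone, and Ndufab1, Cox4i2, Cox7a1, Cox7a2l and Ndufa4l2 did not pass the test.

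**Figure D1:**
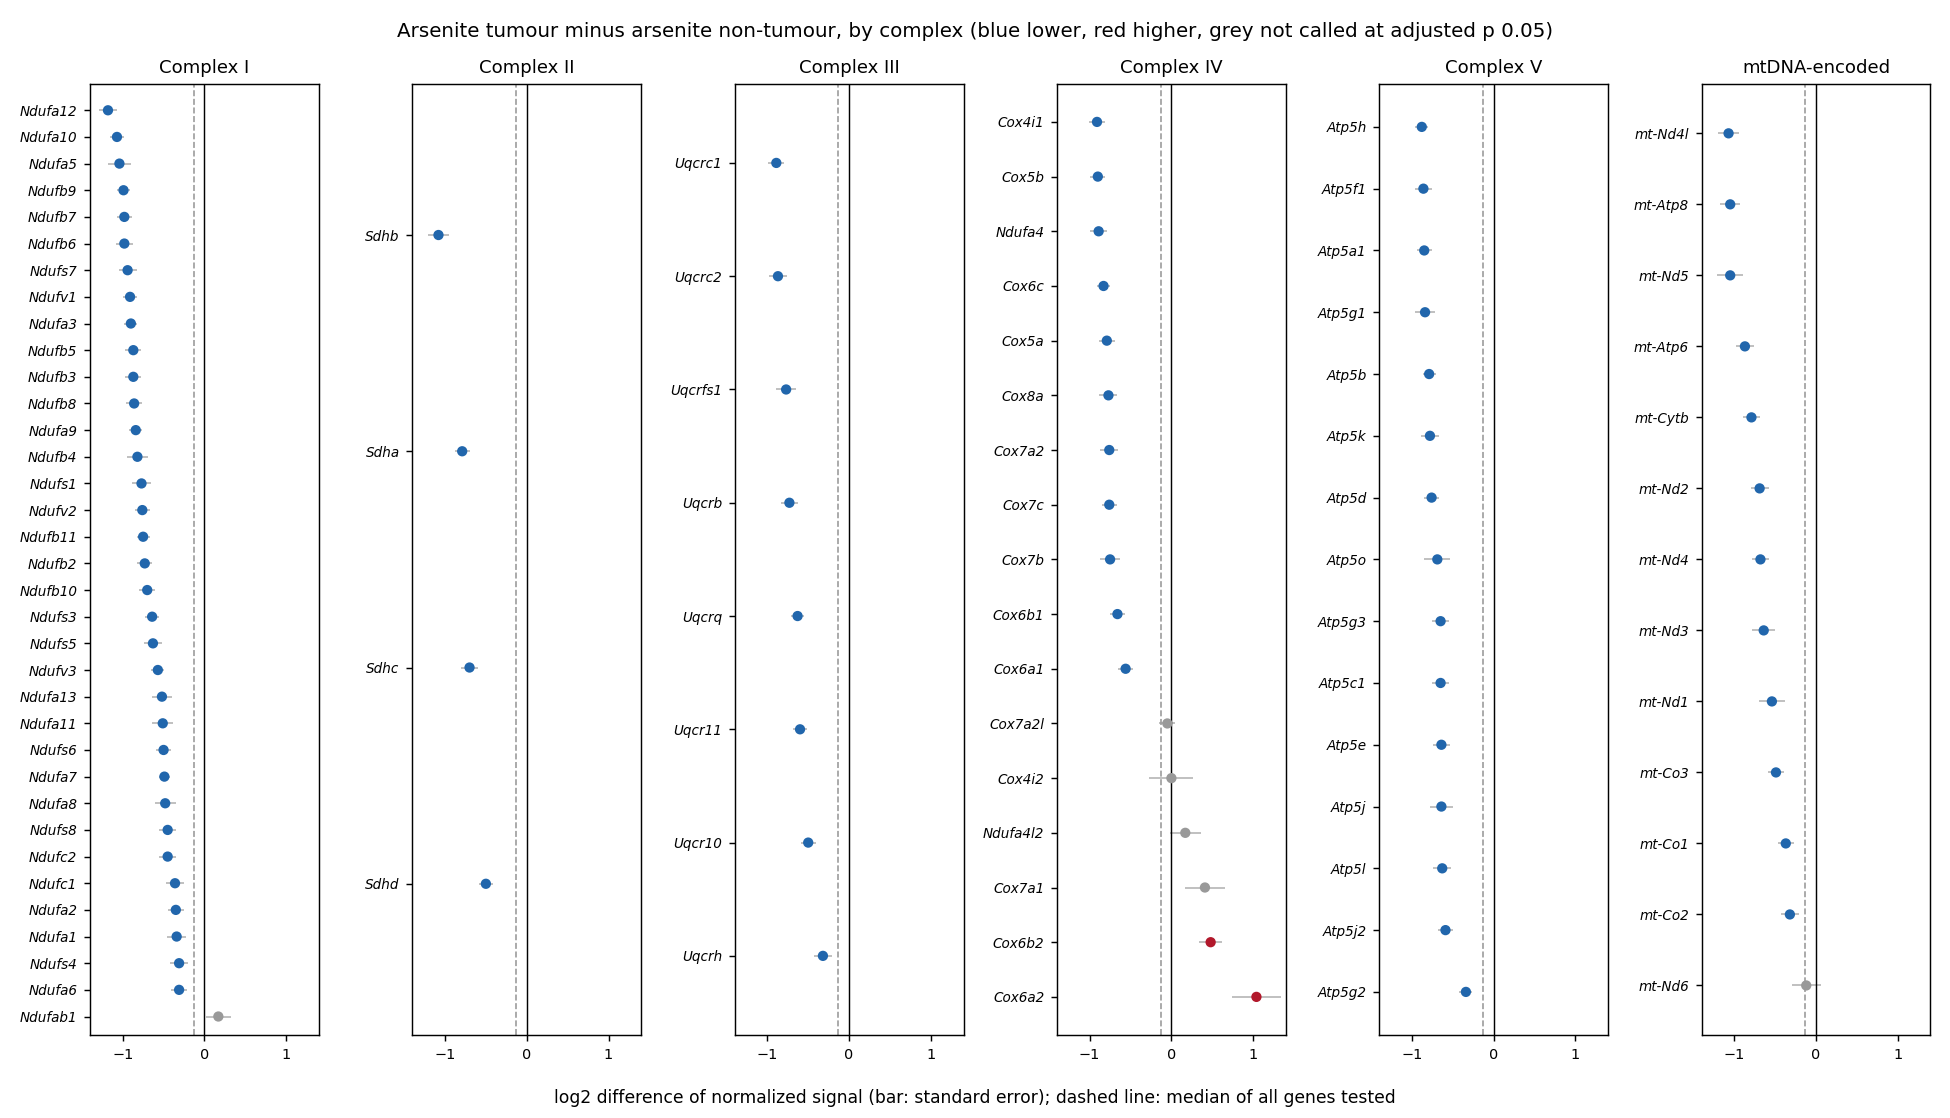
Log2 difference of 79 of the 80 subunits, arsenite tumour minus arsenite non-tumour, with its standard error as a bar, in one panel per complex and one for the 13 subunits encoded by mtDNA; blue points fell, red points rose and grey points did not pass the adjusted p of 0.05. Points lie left of the dashed line (the median of all genes tested, -0.13) for every member of complexes II, III and V, and the exceptions sit at the foot of the complex I, complex IV and mtDNA panels.

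Each array showed the same picture. The median deviation of the 80 subunits from their mean over the 9 arrays without tumour was -0.83, -0.63 and -0.65 in tumours 1, 2 and 3. It was -0.04, 0.09 and -0.03 in arsenite non-tumour liver, 0.04, -0.06 and -0.03 in arsenite normal liver and -0.11, 0.05 and 0.09 in control non-tumour liver. Tumour 1 was the lowest of the 3 tumours for 66 of the 80 subunits, with no such count over all genes tested to set beside it. The tumours thus lay apart from all 9 other arrays, which overlapped between groups, and the spread of a subunit over the 3 tumours (median SD 0.11) was that of control non-tumour liver (0.11) and larger than in arsenite normal liver (0.06).

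**Figure D2:**
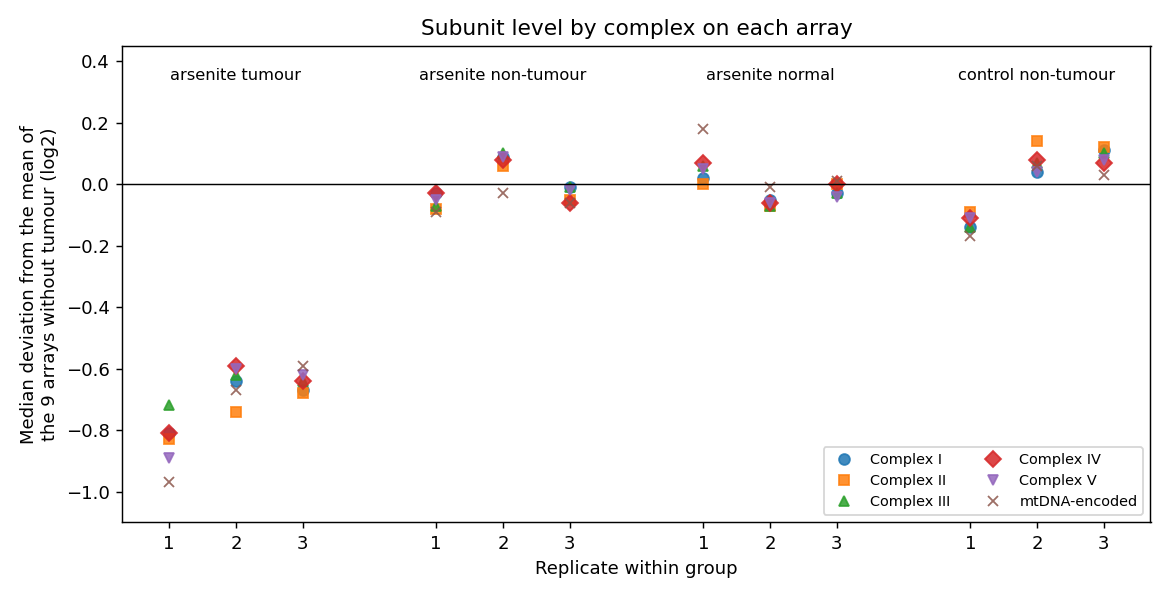
Median over the subunits of each complex of the log2 level minus the gene's mean over the 9 arrays without tumour (vertical axis), for each of the 12 arrays by group and replicate (horizontal axis). The 3 tumours lie between -0.97 and -0.59 in every complex and in the mtDNA-encoded set, and the other 9 arrays between -0.17 and 0.18.

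How far these values go is bounded by the scale of the arrays and by the makeup of the tissue. The median of all genes tested moved between -0.31 and 0.03 over 7 ways of scaling the arrays, and the subunit median between -0.89 and -0.46. A scaling by a single constant per array cannot change the gap between them, which was -0.59 (subunit median minus all-gene median). Quantile normalization and normexp background correction can change it, and with these it was -0.41 and -0.54. Among all called genes the share called higher was 36.4%, against 46.5% with quantile normalization and 53.2% with the percentile taken over detected spots. Of the 80 subunits, 61 were called lower under all 7 scalings. Subunits with a mean level of 4 or more, 73 in all, had a median of -0.75 where all 3295 genes that bright had -0.21. Of these subunits 72 were called lower, where 42.6% of all genes that bright were. All tumour arrays were on a slide of their own, as were the arsenite normal arrays, so slide and group cannot be told apart in the tumour comparisons.

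**Figure D3:**
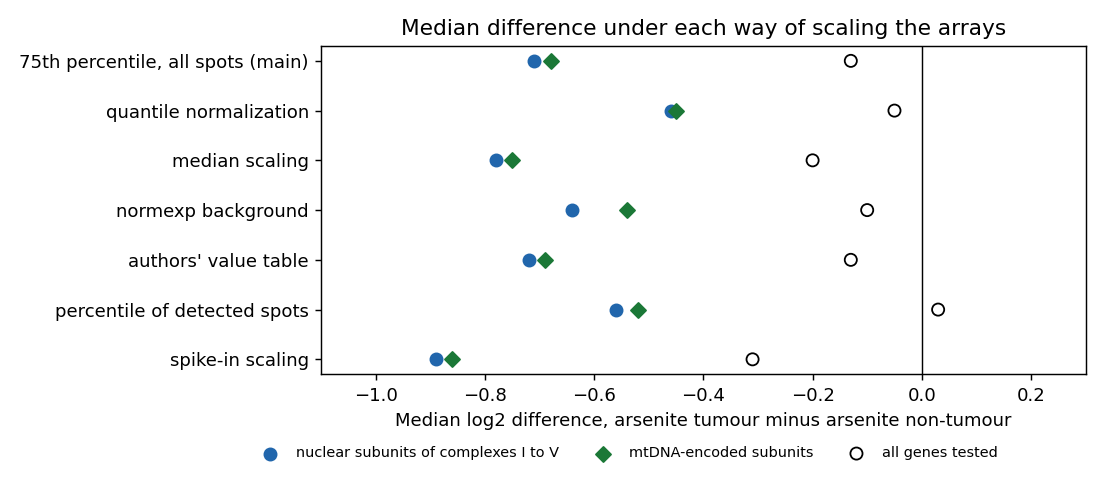
Median log2 difference, arsenite tumour minus arsenite non-tumour (horizontal axis), of the nuclear subunits, the mtDNA-encoded subunits and all genes tested under 7 ways of scaling the arrays (rows). The subunit median lies between -0.89 and -0.46 and that of all genes between -0.31 and 0.03.

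Markers of cell types were counted too, where 30% of all genes tested were called lower and 17.1% higher. In lists this short, counts near these shares are not read as a result. The summed level of 6 Kupffer cell markers (sum of linear signals, in units of the array's 75th percentile) was 34.7 to 66.6 in the tumours, against 99.3 to 139 in arsenite non-tumour liver, and 4 of the 6 were called lower and none higher (median difference -0.93). For 6 stellate cell markers the sum was 19.9 to 28.8, against 68.0 to 74.2, but 3 were called lower and 2 higher (median 0.22), with Dcn at -2.05 (adjusted p = 3.8e-07) and Col1a1 at 2.11 (adjusted p = 0.00092). For 5 endothelial markers it was 38.7 to 56.5, against 74.1 to 91.4, with 2 called lower and 1, Lyve1, higher (median 0.02). The 2 tested markers of B and plasma cells summed to 2 to 4.42, against 1.09 to 1.65, and Jchain of plasma cells was called higher, with 1.32 (adjusted p = 0.019), a call lost in 4 of 25 alternatives. The 4 cycling markers were all called higher (sum 2.90 to 12.1, against 0.420 to 0.603). In control non-tumour liver their sum was 0.332 to 0.35, near the dimmest signals well above background. A marker that passed the filter through the tumours alone would be high there by condition. These 4 calls are therefore given as a description. The 6 hepatocyte markers overlapped (4080 to 4930, against 4500 to 4940), with Alb at a difference of -0.05 (adjusted p = 0.72), Apoa1 called higher and Cps1 and Serpina1c lower (Serpina1c at 0.04 with quantile normalization). The defining markers Krt7, Epcam, Ms4a1 and Ncr1 of duct, B and NK cells were not well above background on all arrays of any group. The part of these shifts in the subunit result was not tested, and in such bulk RNA fewer mitochondria-rich cells and less subunit RNA per cell cannot be told apart.

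Some promoters of these genes hold binding letters of known regulators. NRF1 (nuclear respiratory factor 1), the ETS factor GABP (also called NRF2), YY1 and the oestrogen-related receptors (ERR) are known to drive nuclear subunit genes. RefSeq promoters on GRCm38.p6, from 250 bases before to 50 after the start site, were found for 74 of the 90 members (80 promoters), among them 66 of the 80 tested subunits with 71 promoters. On either strand, GCATGCGC (NRF1) occurred in 14.1% of these 71 promoters, against 2.71% of all 32851 promoters. CCGGAAG (ETS) occurred in 22.5%, against 8.86%. ATGGCGG (YY1) occurred in 15.5%, against 4.05%, and AAGGTCA (ERR, which other nuclear receptors also read) in 11.3%, against 4.72%. At least 1 of the 4 stood in 49.3% of subunit promoters, against 18.4% of all. These matches are a description of letters and not of bound sites. Subunits with and without the letters are given side by side: the median difference was -0.58 for the 10 subunits with the NRF1 letters, against -0.75 for the 56 without, and -0.64 for the 16 with the ETS letters, against -0.75 for the 50 without. For YY1 it was -0.72 for 10 subunits, against -0.71 for 56, and for ERR -0.65 for 8, against -0.75 for 58.

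For each motif, the promoter of the subunit with the smallest p among those that hold it is printed below, 5′ to 3′ on the gene's strand, with the matched letters in capitals. All 4 genes fell in the tumours, by 0.89, 0.98, 0.84 and 0.73 on the log2 scale in the order shown. The NRF1 letters in Uqcrc1 overlap their own reverse complement, so that 10 capitals stand 30 bases past the start site. The ETS letters of Ndufb7 begin at position -20 from the start site, the YY1 letters of Ndufa9 at position 32 and the ERR letters of Ndufb2 at position -181.
Uqcrc1, chr9:108936398-108936697, + strand: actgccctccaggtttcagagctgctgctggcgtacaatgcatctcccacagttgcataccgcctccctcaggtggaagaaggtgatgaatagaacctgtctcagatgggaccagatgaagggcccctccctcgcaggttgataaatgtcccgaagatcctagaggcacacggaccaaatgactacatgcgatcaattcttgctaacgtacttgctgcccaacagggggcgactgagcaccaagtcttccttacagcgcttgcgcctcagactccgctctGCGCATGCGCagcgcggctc
Ndufb7, chr8:83566508-83566807, + strand: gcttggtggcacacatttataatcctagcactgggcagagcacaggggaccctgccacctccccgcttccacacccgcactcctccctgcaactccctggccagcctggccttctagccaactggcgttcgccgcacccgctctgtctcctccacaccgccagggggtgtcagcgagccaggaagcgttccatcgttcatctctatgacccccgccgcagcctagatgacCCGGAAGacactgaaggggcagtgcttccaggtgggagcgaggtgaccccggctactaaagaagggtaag
Ndufa9, chr6:126849095-126849394, - strand: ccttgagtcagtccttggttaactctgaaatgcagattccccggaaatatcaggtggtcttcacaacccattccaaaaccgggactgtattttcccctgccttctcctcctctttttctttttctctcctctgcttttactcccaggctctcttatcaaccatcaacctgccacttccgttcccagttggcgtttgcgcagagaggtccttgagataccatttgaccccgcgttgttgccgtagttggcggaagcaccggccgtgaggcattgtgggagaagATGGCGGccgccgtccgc
Ndufb2, chr6:39592315-39592614, + strand: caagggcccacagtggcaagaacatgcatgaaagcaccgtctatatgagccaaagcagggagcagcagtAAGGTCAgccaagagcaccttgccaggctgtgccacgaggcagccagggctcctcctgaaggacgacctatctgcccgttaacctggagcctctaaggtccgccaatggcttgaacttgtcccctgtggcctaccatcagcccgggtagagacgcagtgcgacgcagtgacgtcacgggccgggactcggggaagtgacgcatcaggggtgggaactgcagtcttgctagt

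Complex I takes electrons from NADH through a flavin and a chain of iron-sulphur clusters. Of its 36 tested nuclear subunits 35 fell, where 30% of all genes tested were called lower. They were 7 of 7 core subunits (median -0.76) and 28 of 29 supernumerary ones (median -0.70). Ndufa10, a supernumerary subunit of the membrane arm (mm9, chromosome 1, probe 94361039 to 94363996), had the smallest p of all subunits. Its level was 3.29, 3.33 and 3.39 in the tumours, against 4.44, 4.42 and 4.37 in arsenite non-tumour liver, 4.35, 4.24 and 4.23 in arsenite normal liver and 4.2, 4.44 and 4.48 in control non-tumour liver. The tumours lay below all other arrays, a difference of -1.07 (SE 0.09, adjusted p = 7.9e-06) or 47.5% of the non-tumour level.

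The largest fall of the set was that of Ndufa12, an accessory subunit of the NADH-binding arm, at -1.18 (SE 0.11, adjusted p = 1.3e-05). Its level was 5.4, 5.65 and 5.68 in the tumours, against 6.69, 6.85 and 6.72 in arsenite non-tumour liver, 6.67, 6.66 and 6.74 in arsenite normal liver and 6.56, 6.82 and 6.8 in control non-tumour liver. Every tumour array lay below every other array, with tumour 1 lowest. Ndufb9 stood at 6.86, 6.82 and 6.89 in the tumours, against 7.82, 7.85 and 7.86 in arsenite non-tumour liver and 7.7 to 7.95 on the other 6 arrays, a difference of -0.99 (SE 0.08, adjusted p = 8.7e-06). Ndufa3 stood at 6.43, 6.44 and 6.46 in the tumours, against 7.38, 7.39 and 7.26 in arsenite non-tumour liver and 7.2 to 7.39 on the other 6 arrays, a difference of -0.9 (SE 0.08, adjusted p = 1.1e-05). In both genes the 3 tumours differed among themselves by less than 0.1. Ndufa5 followed with -1.04 (adjusted p = 0.0002).

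The 7 core subunits, which carry the flavin and the iron-sulphur clusters or line the quinone site, all fell. Ndufv1, which binds the flavin and takes the electrons of NADH, fell by 0.91 on the log2 scale (level 6.35 ± 0.05 in the tumours, against 7.26 ± 0.09 in arsenite non-tumour liver, SD, n = 3 each). Ndufs7, which carries the last iron-sulphur cluster before the quinone, gave -0.94 (SE 0.11, adjusted p = 4.8e-05). Ndufs1 gave -0.77 (adjusted p = 0.00036), Ndufv2 -0.76 (adjusted p = 7.0e-05) and Ndufs3 -0.64 (adjusted p = 0.00026). Ndufs8 gave -0.45 (adjusted p = 0.0045). All 10 Ndufb subunits, most of them in the outer part of the membrane arm, fell within a narrow range, from -0.99 to -0.70 with a median of -0.86.

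At the weak end of complex I lay Ndufs4, a subunit known for mutations in Leigh syndrome, at -0.31 (adjusted p = 0.042), Ndufa6 at -0.31 (adjusted p = 0.025), Ndufa1 at -0.34 (adjusted p = 0.038), Ndufa2 at -0.35 (adjusted p = 0.016) and Ndufc1 at -0.36 (adjusted p = 0.019). Without arsenite non-tumour 2 these 5 differences were -0.24, -0.26, -0.31, -0.32 and -0.31 in that order, and none was called, with an adjusted p of 0.15 for Ndufs4, 0.088 for Ndufa6, 0.1 for Ndufa1, 0.054 for Ndufa2 and 0.067 for Ndufc1. Ndufs4 was also lost without any 1 tumour (adjusted p 0.068 to 0.1), arsenite non-tumour 1 (0.063), any 1 arsenite normal array (0.055 to 0.06) or control non-tumour 2 (0.058). Ndufa1 was lost without tumour 1 (0.11) or 3 (0.078), arsenite non-tumour 1 (0.07) or 3 (0.069), arsenite normal 3 (0.054) or control non-tumour 2 (0.052). Ndufa6 was lost without tumour 2 (0.09) or 3 (0.077) or arsenite non-tumour 1 (0.074), and Ndufc1 without tumour 1 (0.065) or arsenite non-tumour 3 (0.057). With the replicate number as a block on the 6 arrays compared, Ndufs4 (0.077), Ndufa6 (0.1), Ndufa1 (0.052) and Ndufa8 (0.061) did not pass.

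Ndufab1, the mitochondrial acyl carrier protein, which also serves fatty acid and lipoate synthesis, was the one complex I subunit that did not fall. Its level was 2.38, 2.61 and 2.52 in the tumours, against 2.22, 2.44 and 2.35 in arsenite non-tumour liver, 2.3, 2.08 and 2.2 in arsenite normal liver and 1.94, 2.49 and 2.53 in control non-tumour liver. The tumours overlapped arsenite non-tumour and control non-tumour liver and lay above all 3 arsenite normal arrays, from which the difference was 0.31 (adjusted p = 0.12), or called higher without control non-tumour 1 (adjusted p = 0.026). From arsenite non-tumour liver it was 0.17 (SE 0.15, adjusted p = 0.39) with a 95% interval of -0.17 to 0.51, which leaves out the median fall of the complex.

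Complex II, succinate dehydrogenase, belongs to both the respiratory chain and the tricarboxylic acid (TCA) cycle. All 4 subunits fell, where 30% of all genes tested were called lower. Sdhb, which carries the iron-sulphur clusters, stood at 6.57, 6.99 and 7.04 in the tumours, against 7.86, 8.05 and 7.94 in arsenite non-tumour liver, 8.01, 7.96 and 8.01 in arsenite normal liver and 7.89, 8.13 and 8.08 in control non-tumour liver, a difference of -1.08 (SE 0.13, adjusted p = 7.1e-05). Tumours 2 and 3 lay close together and tumour 1 lowest. Sdha, the flavin-bearing catalytic subunit, stood at 5.28, 5.36 and 5.52 in the tumours, against 6.17, 6.23 and 6.14 in arsenite non-tumour liver, 6.17, 6.12 and 6.18 in arsenite normal liver and 6.11, 6.27 and 6.29 in control non-tumour liver, a difference of -0.79 (SE 0.09, adjusted p = 5.0e-05). Sdhc and Sdhd anchor the enzyme in the membrane. Sdhc stood at 4.52, 4.6 and 4.58 in the tumours, against 5.22, 5.33 and 5.25 in arsenite non-tumour liver, 5.17, 5.2 and 5.28 in arsenite normal liver and 5.13, 5.43 and 5.43 in control non-tumour liver, a difference of -0.7 (SE 0.1, adjusted p = 0.00019). Sdhd stood at 6.18, 6.06 and 6.19 in the tumours, against 6.55, 6.76 and 6.62 in arsenite non-tumour liver, 6.69, 6.6 and 6.6 in arsenite normal liver and 6.58, 6.81 and 6.8 in control non-tumour liver, a difference of -0.5 (SE 0.09, adjusted p = 0.0016). In none of the 4 genes did a tumour array reach any other array.

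Complex III passes electrons from reduced coenzyme Q to cytochrome c. All 8 nuclear subunits tested here fell, where 30% of all genes tested were called lower. Uqcrc1, one of the core proteins, stood at 4.41, 4.5 and 4.63 in the tumours, against 5.3, 5.51 and 5.39 in arsenite non-tumour liver, 5.42, 5.2 and 5.35 in arsenite normal liver and 5.27, 5.35 and 5.48 in control non-tumour liver, a difference of -0.89 (SE 0.1, adjusted p = 5.9e-05). Uqcrc2, the other core protein, stood at 5.51, 5.65 and 5.73 in the tumours, against 6.46, 6.54 and 6.5 in arsenite non-tumour liver and 6.36 to 6.72 on the other 6 arrays, a difference of -0.87 (SE 0.11, adjusted p = 8.4e-05). The tumours thus held 54.0% and 54.7% of the non-tumour level of the core pair. Uqcrb stood at 6.41, 6.46 and 6.51 in the tumours, against 7.12, 7.27 and 7.18 in arsenite non-tumour liver and 6.9 to 7.21 on the other 6 arrays, a difference of -0.73 (SE 0.1, adjusted p = 0.00016). Uqcrq stood at 8.41, 8.62 and 8.49 in the tumours, against 9.13, 9.18 and 9.08 in arsenite non-tumour liver and 9.08 to 9.23 on the other 6 arrays, a difference of -0.63 (SE 0.08, adjusted p = 0.00017). Both encode small subunits, and neither overlapped between tumours and the rest. Uqcrfs1, the Rieske iron-sulphur protein, gave -0.77 (adjusted p = 0.00053), Uqcr11 -0.6 (adjusted p = 0.0004) and Uqcr10 -0.5 (adjusted p = 0.0014). Uqcrh, the hinge protein, had a level of 7.22, 7.26 and 7.22 in the tumours, against 7.46, 7.69 and 7.52 in arsenite non-tumour liver, 7.65, 7.5 and 7.63 in arsenite normal liver and 7.31, 7.54 and 7.69 in control non-tumour liver, a difference of -0.32 (SE 0.11, adjusted p = 0.031). The call of Uqcrh was lost with the block (adjusted p = 0.066) and without arsenite non-tumour 2 (0.11) or 3 (0.054), and without tumour 1 (0.067), tumour 2 (0.06) or tumour 3 (0.071).

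Complex IV reduces oxygen to water and has alternative subunits that replace one another between tissues. Of the 12 tested subunits that are not tissue isoforms 11 fell, with a median of -0.76 over the 12. Of all genes tested 30% were called lower. Of the 5 tissue isoforms none was called lower and 2 were called higher, of which Cox6a2 entered the test through the tumours alone. The differences of the others were 0 (Cox4i2), 0.17 (Ndufa4l2), 0.41 (Cox7a1) and 0.48 (Cox6b2). Against arsenite normal liver 1 of the 5, again Cox6a2, was called. There the others gave -0.11, 0.08, 0.4 and 0.23 in the same order. All 5 were dim: 4 had a mean level under 0, where 19.9% of all genes tested were called lower, and 1 between 0 and 2, where 31.1% were. The difference between isoforms and other subunits was not tested. Cox5b stood at 5.95, 6.06 and 6.06 in the tumours, against 6.96, 6.96 and 6.84 in arsenite non-tumour liver, 7.05, 6.86 and 7.01 in arsenite normal liver and 6.87, 7.04 and 7.03 in control non-tumour liver, a difference of -0.9 (SE 0.09, adjusted p = 2.2e-05). The probe that stands for Cox5b is placed on chromosome 15 by the array annotation, while the RefSeq gene lies on chromosome 1, and the other Cox5b probe gave -0.82. Cox6c stood at 6.92, 6.92 and 6.89 in the tumours, against 7.75, 7.81 and 7.66 in arsenite non-tumour liver, 7.79, 7.68 and 7.7 in arsenite normal liver and 7.62, 7.82 and 7.79 in control non-tumour liver, a difference of -0.83 (SE 0.08, adjusted p = 2.4e-05). The nuclear subunits Cox5a, Cox7b and Cox7c followed with -0.79 (adjusted p = 8.5e-05), -0.75 (adjusted p = 0.00042) and -0.76 (adjusted p = 7.5e-05).

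The isoforms are given pair by pair, each gene against its own level in the other groups. Cox4i1, the ubiquitous isoform of subunit 4, stood at 7.2, 7.5 and 7.43 in the tumours, against 8.3, 8.32 and 8.23 in arsenite non-tumour liver, 8.35, 8.25 and 8.34 in arsenite normal liver and 8.22, 8.42 and 8.38 in control non-tumour liver, a difference of -0.91 (SE 0.1, adjusted p = 3.8e-05). Cox4i2, the isoform known from lung and from low oxygen, stood at -2.15, -1.18 and -1.34 in the tumours, against -1.75, -1.43 and -1.5 in arsenite non-tumour liver, -1.27, -1.73 and -1.34 in arsenite normal liver and -0.83, -1.69 and -1.37 in control non-tumour liver, a difference of 0.00 (SE 0.27, adjusted p = 1) with a 95% interval of -0.61 to 0.61. Cox4i1 separated the tumours from all other arrays, whereas the tumour values of Cox4i2 overlapped those of each other group.

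Subunit 6a has the liver form Cox6a1 and the heart and muscle form Cox6a2. Cox6a1 stood at 9.19, 9.29 and 9.32 in the tumours, against 9.87, 9.86 and 9.74 in arsenite non-tumour liver, 9.94, 9.75 and 9.82 in arsenite normal liver and 9.78, 9.92 and 9.93 in control non-tumour liver, a difference of -0.56 (SE 0.09, adjusted p = 0.00046). Cox6a2 was clearly above background on each tumour array and on no array of the other groups, with levels of -2.71, -1.53 and -1.98 in the tumours, against -2.93, -3.25 and -3.15 in arsenite non-tumour liver, -2.96, -3.55 and -2.81 in arsenite normal liver and -3.02, -3.68 and -3.21 in control non-tumour liver. Since its probe passed the filter only because the tumours were high, the following p-values describe this gene and support nothing. Its level in the tumours was 2.05-fold that in arsenite non-tumour liver (95% interval of the log2 difference 0.38 to 1.7, adjusted p = 0.015). Against arsenite normal liver it was also 2.05-fold (interval 0.37 to 1.69, adjusted p = 0.015). The rise against non-tumour liver was lost with normexp background correction (difference 0.16, adjusted p = 0.30), without tumour 2 (0.77, 0.058) and with the replicate block (adjusted p = 0.071). Against arsenite normal liver it was lost without tumour 2 (0.76, adjusted p = 0.058) or arsenite normal 2 (0.81, 0.061) and with the block (0.099). None of 6 striated muscle markers (Myh1, Myh4, Acta1, Ckm, Mb and Tnnc2) passed the filter on dim probes.

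Subunit 6b has the common form Cox6b1 and the testis form Cox6b2. Cox6b1 stood at 4.01, 4.19 and 4.1 in the tumours, against 4.75, 4.86 and 4.68 in arsenite non-tumour liver, 4.76, 4.67 and 4.75 in arsenite normal liver and 4.62, 4.71 and 4.73 in control non-tumour liver, a difference of -0.66 (SE 0.09, adjusted p = 0.00013). Cox6b2 stood at -0.72, -0.69 and -1.13 in the tumours, against -1.14, -1.45 and -1.38 in arsenite non-tumour liver, -1.01, -1.05 and -1.17 in arsenite normal liver and -1.47, -1.1 and -1.34 in control non-tumour liver, a difference of 0.48 (SE 0.14, adjusted p = 0.019). Tumour 3 lay beside the highest arsenite non-tumour array, and against arsenite normal liver the difference was 0.23 (adjusted p = 0.21). The rise of Cox6b2 was lost without tumour 1 (adjusted p = 0.064), without tumour 2 (0.072), without arsenite non-tumour 2 (0.07) or 3 (0.055), with the 6 compared arrays alone (0.055), with the replicate block on them (0.06), with median scaling (0.13), with normexp (0.14) and with spike-in scaling (0.38).

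Subunit 7a has the common form Cox7a2, the heart and muscle form Cox7a1, and Cox7a2l, also known as SCAF1, which joins complexes III and IV into a supercomplex. Cox7a2 stood at 5.79, 6.0 and 5.96 in the tumours, against 6.57, 6.9 and 6.57 in arsenite non-tumour liver, 6.76, 6.71 and 6.69 in arsenite normal liver and 6.54, 6.68 and 6.77 in control non-tumour liver, a difference of -0.76 (SE 0.11, adjusted p = 0.0003). Cox7a2l stood at 6.38, 6.49 and 6.36 in the tumours, against 6.42, 6.62 and 6.34 in arsenite non-tumour liver, 6.52, 6.57 and 6.45 in arsenite normal liver and 6.39, 6.48 and 6.66 in control non-tumour liver, a difference of -0.05 (SE 0.1, adjusted p = 0.71) with a 95% interval of -0.28 to 0.18. Its 3 probes gave -0.05 to -0.03, its groups overlapped, and with quantile normalization it was called higher in the tumours (0.24, adjusted p = 0.026). Cox7a1 stood at 1.46, 1.15 and 1.55 in the tumours, against 0.33, 1.11 and 1.48 in arsenite non-tumour liver, 1.11, 0.89 and 0.97 in arsenite normal liver and 0.75, 0.79 and 0.87 in control non-tumour liver, a difference of 0.41 (SE 0.24, adjusted p = 0.18). Arsenite non-tumour 1 was its lowest array and arsenite non-tumour 3 lay among the tumours, and the difference was 0.66 without arsenite non-tumour 3 (adjusted p = 0.029) and 0.09 without arsenite non-tumour 1 (adjusted p = 0.68).

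Ndufa4, once counted to complex I and now known as a complex IV subunit, stood at 5.81, 5.81 and 5.86 in the tumours, against 6.68, 6.78 and 6.68 in arsenite non-tumour liver, 6.76, 6.61 and 6.74 in arsenite normal liver and 6.58, 6.83 and 6.89 in control non-tumour liver, a difference of -0.89 (SE 0.1, adjusted p = 4.0e-05). Ndufa4l2, its relative known from low oxygen, stood at -0.69, -0.51 and -0.81 in the tumours, against -1.11, -0.44 and -0.98 in arsenite non-tumour liver, -0.61, -0.71 and -0.93 in arsenite normal liver and -0.75, -0.27 and -0.55 in control non-tumour liver, a difference of 0.17 (SE 0.19, adjusted p = 0.48) with a 95% interval of -0.24 to 0.58. Its groups overlapped. Cox7b, whose testis counterpart Cox7b2 was not above background, stood at 6.48, 6.84 and 6.77 in the tumours, against 7.38, 7.55 and 7.4 in arsenite non-tumour liver and 7.25 to 7.51 on the other 6 arrays. Cox8a, the liver form of subunit 8, stood at 7.59, 7.88 and 7.89 in the tumours, against 8.45, 8.65 and 8.55 in arsenite non-tumour liver, 8.65, 8.47 and 8.56 in arsenite normal liver and 8.41, 8.66 and 8.66 in control non-tumour liver, a difference of -0.77 (SE 0.11, adjusted p = 0.00034). Its heart and muscle counterpart Cox8b was well above background on arsenite non-tumour 1 alone, at a level of -2.10, and was not tested.

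**Figure D4:**
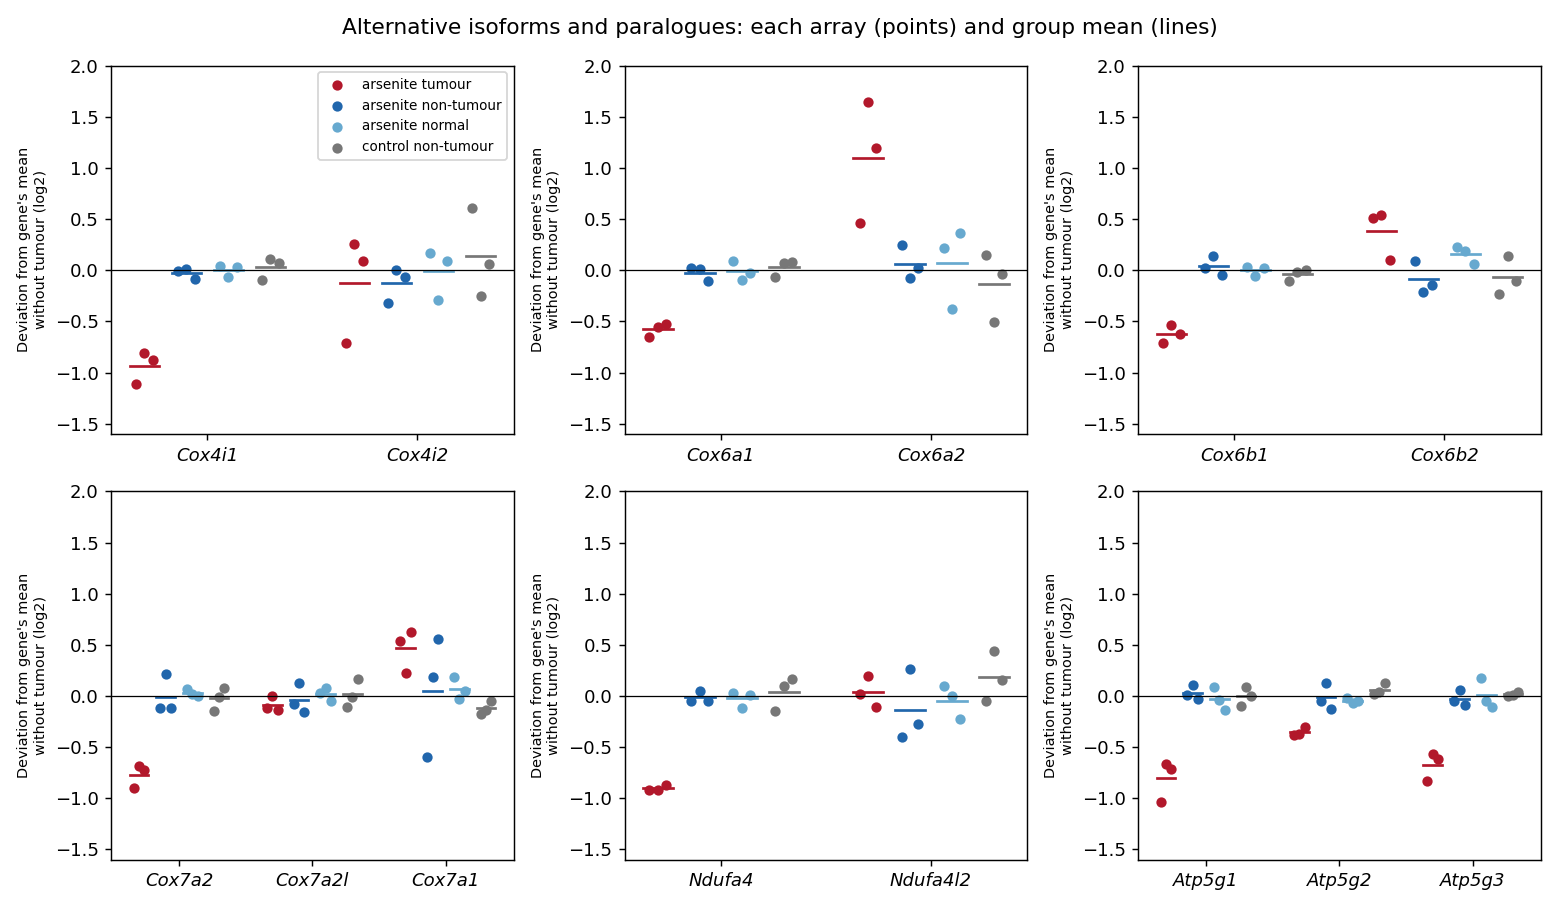
Log2 level minus the gene's own mean over the 9 arrays without tumour (vertical axis) for isoform pairs of complex IV and the 3 genes of ATP synthase subunit c, with each array as a point and each group's mean as a line. The common forms Cox4i1, Cox6a1, Cox6b1, Cox7a2 and Ndufa4 and all 3 Atp5g genes are lower on the tumour arrays, while Cox4i2, Cox7a2l and Ndufa4l2 overlap the other groups and Cox6a2 lies above them.

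Complex V makes ATP with a catalytic head, F1, and a proton channel with its stalk, Fo. All 15 nuclear subunits tested here fell, where 30% of all genes tested were called lower. The 5 F1 subunits had a median of -0.76 and the 10 Fo and stalk subunits of -0.67. Atp5b, the catalytic beta subunit, stood at 7.98, 8.09 and 8.17 in the tumours, against 8.86, 8.9 and 8.84 in arsenite non-tumour liver, 8.91, 8.77 and 8.77 in arsenite normal liver and 8.85, 8.95 and 8.96 in control non-tumour liver, a difference of -0.79 (SE 0.08, adjusted p = 3.5e-05). Atp5a1, the alpha subunit, stood at 6.53, 6.62 and 6.71 in the tumours, against 7.42, 7.55 and 7.44 in arsenite non-tumour liver and 7.32 to 7.56 on the other 6 arrays, a difference of -0.85 (SE 0.09, adjusted p = 4.4e-05). The tumour values of alpha and beta spanned less than 0.2 each. Atp5h, the stalk subunit d, had the smallest p of the complex, with 7.31, 7.41 and 7.45 in the tumours, against 8.29, 8.33 and 8.21 in arsenite non-tumour liver, 8.35, 8.22 and 8.2 in arsenite normal liver and 8.22, 8.35 and 8.34 in control non-tumour liver and a difference of -0.88 (SE 0.08, adjusted p = 1.6e-05). Atp5f1, the stalk subunit b, stood at 4.79, 4.98 and 5.08 in the tumours, against 5.71, 5.91 and 5.81 in arsenite non-tumour liver and 5.7 to 5.92 on the other 6 arrays, a difference of -0.86 (SE 0.1, adjusted p = 7.6e-05).

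The proton-carrying ring of subunit c is encoded by 3 genes whose mature proteins are the same. Atp5g1 stood at 7.3, 7.67 and 7.63 in the tumours, against 8.35, 8.45 and 8.31 in arsenite non-tumour liver, 8.43, 8.3 and 8.2 in arsenite normal liver and 8.24, 8.43 and 8.34 in control non-tumour liver, a difference of -0.84 (SE 0.12, adjusted p = 0.0002). Atp5g3 stood at 7.52, 7.79 and 7.74 in the tumours, against 8.31, 8.41 and 8.27 in arsenite non-tumour liver, 8.53, 8.31 and 8.25 in arsenite normal liver and 8.36, 8.37 and 8.39 in control non-tumour liver, a difference of -0.65 (SE 0.1, adjusted p = 0.00048). Atp5g2 stood at 7.28, 7.29 and 7.36 in the tumours, against 7.62, 7.79 and 7.54 in arsenite non-tumour liver, 7.64, 7.6 and 7.62 in arsenite normal liver and 7.68, 7.7 and 7.79 in control non-tumour liver, a difference of -0.34 (SE 0.08, adjusted p = 0.0075). All 3 fell, but the call of Atp5g2 was lost in 5 of 25 alternatives, among them the replicate block (adjusted p = 0.077) and quantile normalization (difference -0.09, adjusted p = 0.33). The second Atp5g1 probe gave -0.3 where the first gave -0.84. In the rest of the complex Atp5o, the oligomycin sensitivity protein of the stalk, gave -0.69 (adjusted p = 0.0046), Atp5d -0.76 (adjusted p = 9.9e-05), Atp5k -0.78 (adjusted p = 0.00016), Atp5c1, the rotating gamma subunit, -0.65 (adjusted p = 0.00046) and Atp5e -0.64 (adjusted p = 0.00039).

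The 7 members that share a prefix but are no subunits were tested too. Of these 6 fell, where 30% of all genes tested were called lower. Ndufaf1, Ndufaf2, Ndufaf3 and Ndufaf4 assemble complex I, and their differences were -0.93 (adjusted p = 4.5e-05), -0.33 (adjusted p = 0.029), -0.77 (adjusted p = 0.0021) and -0.82 (adjusted p = 0.0027). Atp5sl, today called Dmac2 and also known in complex I assembly, stood at 3.12, 3.24 and 3.28 in the tumours, against 4.08, 4.13 and 4.15 in arsenite non-tumour liver and 3.95 to 4.2 on the other 6 arrays, a difference of -0.91 (SE 0.08, adjusted p = 8.7e-06). Cox4nb, today called Emc8, is the neighbour of Cox4i1 and a part of the membrane complex of the endoplasmic reticulum, not of mitochondria, and gave -0.64 (adjusted p = 0.002). Atp5s, today called Dmac2l, gave -0.31 (adjusted p = 0.055). Ndufaf2 lost its call with the replicate block (adjusted p = 0.06) and without tumour 2 (0.062), tumour 3 (0.083) or arsenite non-tumour 1 (0.084) or 2 (0.1). Atp5s, not called with all arrays, was called lower without arsenite non-tumour 3 (adjusted p = 0.048) or arsenite normal 2 (0.03) or 3 (0.048).

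The subunits encoded in mtDNA lie outside the rule, since the array names them otherwise. Of the 13, 12 fell, where 30% of all genes tested were called lower, and the median over the 13 was -0.68. In complex I mt-Nd4l stood at 7.04, 7.31 and 7.51 in the tumours, against 8.31, 8.4 and 8.36 in arsenite non-tumour liver, 8.67, 8.48 and 8.54 in arsenite normal liver and 8.19, 8.5 and 8.48 in control non-tumour liver, a difference of -1.07 (SE 0.13, adjusted p = 8.4e-05). The array annotation places the mt-Nd3 probe on chromosome 1 and not on mtDNA, and mt-Nd3 gave -0.64 (adjusted p = 0.0035). The other complex I subunits were mt-Nd5 at -1.05 (adjusted p = 0.00038), mt-Nd2 at -0.69 (adjusted p = 0.00059), mt-Nd4 at -0.68 (adjusted p = 0.0004) and mt-Nd1 at -0.54 (adjusted p = 0.016). mt-Cytb, the catalytic heart of complex III, stood at 8.73, 8.89 and 8.97 in the tumours, against 9.69, 9.62 and 9.65 in arsenite non-tumour liver, 9.91, 9.68 and 9.72 in arsenite normal liver and 9.55, 9.8 and 9.79 in control non-tumour liver, a difference of -0.79 (SE 0.1, adjusted p = 0.00015). The core subunits of complex IV were mt-Co3 at -0.49 (adjusted p = 0.002), mt-Co1 at -0.37 (adjusted p = 0.0092) and mt-Co2 at -0.32 (adjusted p = 0.035). In complex V mt-Atp8 gave -1.05 (adjusted p = 7.1e-05) and mt-Atp6 -0.87 (adjusted p = 0.00012).

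mt-Nd6 is the single one of the 13 encoded on the light strand, and it did not pass the test. Its level was 0.1, 0.49 and 0.46 in the tumours, against 0.32, 0.15 and 0.93 in arsenite non-tumour liver, 0.34, 0.42 and 0.39 in arsenite normal liver and 0.31, 0.39 and 0.41 in control non-tumour liver, a difference of -0.12 (SE 0.18, adjusted p = 0.62) with a 95% interval of -0.52 to 0.28. Its tumour values overlapped those of every other group. Tumour 1 was the lowest array for the mtDNA-encoded set, whose median deviations were -0.97, -0.67 and -0.59 in tumours 1, 2 and 3, and between -0.17 and 0.18 on the other 9 arrays. Without tumour 1, mt-Co2 (-0.24, adjusted p = 0.12) and mt-Nd1 (-0.41, 0.057) lost their calls. mt-Co2 was also lost without tumour 3 (0.053) or arsenite non-tumour 1 (0.1) or 2 (0.084), and mt-Nd1 without arsenite non-tumour 2 (0.063). With the replicate block mt-Co1 (0.1) and mt-Co2 (0.1) lost theirs.

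Neighbouring mitochondrial pathways were taken as further lists. Of 37 tested assembly factors outside the rule 24 fell and none rose (median -0.46). Sco2, which delivers copper to complex IV, gave -1.59 (adjusted p = 5.0e-06), Fmc1, an ATP synthase assembly factor, -1.25 (adjusted p = 9.8e-06), Nubpl, which serves the iron-sulphur clusters of complex I, -1.02 (adjusted p = 9.9e-06), and Coa6 -0.82 (adjusted p = 2.3e-05). Of 18 tested genes of electron carriers and coenzyme Q synthesis 14 fell and none rose (median -0.68). Etfdh, which feeds electrons from fatty acid oxidation into coenzyme Q, stood at 4.82, 4.62 and 4.71 in the tumours, against 6.19, 6.26 and 6.24 in arsenite non-tumour liver and 6.01 to 6.27 on the other 6 arrays, a difference of -1.51 (SE 0.08, adjusted p = 4.0e-07). Coq8a gave -1.98 (adjusted p = 4.6e-05) and Cycs, cytochrome c, -0.83 (adjusted p = 0.0017). Of 18 tested TCA cycle genes 16 fell and none rose (median -0.77). Cs, citrate synthase, stood at 5.27, 4.49 and 4.57 in the tumours, against 6.0, 6.19 and 5.98 in arsenite non-tumour liver and 5.92 to 6.27 on the other 6 arrays, a difference of -1.28 (SE 0.18, adjusted p = 0.00025), and Suclg2, Idh3b and Pcx gave -1.19 (adjusted p = 9.1e-06), -0.97 (adjusted p = 1.7e-05) and -0.86 (adjusted p = 1.9e-05). The share called lower was thus above the 30% of all genes tested in each of these lists. It was also above the 42.6% of all genes with a mean level of 4 or more.

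Carriers, import and regulators were more mixed. Of 28 tested genes of import, chaperones and carriers 15 fell and 1, Ucp2, rose (median -0.39), where 30% of all genes tested were called lower and 17.1% higher. Slc25a13, the aspartate and glutamate carrier of liver, gave -1.98 (adjusted p = 6.4e-08), Mfn2 -1.53 (adjusted p = 8.0e-06) and Opa1 -1.07 (adjusted p = 4.5e-05), both of them needed for mitochondrial fusion, and Ucp2 1.17 (adjusted p = 0.0075). Of 19 tested regulators of mitochondrial biogenesis 7 fell and 1 rose (median -0.2), shares near the 30% and not above the 17.1% of all genes tested, from which nothing is read. Ppargc1a, the coactivator known to drive these genes, stood at 0.67, 0.67 and 0.88 in the tumours, against 0.49, 0.66 and 0.63 in arsenite non-tumour liver, 1.2, 0.6 and 0.78 in arsenite normal liver and 1.26, 1.0 and 1.13 in control non-tumour liver, and did not pass with 0.15 (SE 0.15, adjusted p = 0.43). Esrra (ERR alpha) gave -0.2 (adjusted p = 0.1), Tfam, which packs and transcribes mtDNA, -0.23 (adjusted p = 0.056) and Nrf1 0.23 (adjusted p = 0.15), none of them called. Gabpa, the DNA-binding subunit of GABP, stood at 0.52, 0.53 and 0.75 in the tumours, against 1.02, 1.23 and 1.14 in arsenite non-tumour liver, and fell, with -0.53 (adjusted p = 0.0054). Polg2, Tfb2m and Polrmt, which replicate or transcribe mtDNA, fell, with -1.11 (adjusted p = 2.2e-05), -0.64 (adjusted p = 0.00025) and -0.58 (adjusted p = 0.0003). Nfe2l2, the regulator of the antioxidant response, rose, with 1.02 (adjusted p = 8.9e-05).

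Of 13 tested targets of HIF1, the factor of the low oxygen response, none was called higher and 6 were called lower (median -0.18), where 30% of all genes tested were called lower and 17.1% higher. Against arsenite normal liver 5 were called lower and 1 higher, Ldha with 0.28 (adjusted p = 0.036). Hif1a stood at a difference of 0.16 (adjusted p = 0.34) and Ldha at 0.15 (adjusted p = 0.24). Pdk1, which shuts pyruvate dehydrogenase, fell by 1.7 on the log2 scale (adjusted p = 4.6e-05) and Bnip3 by 1.34 (adjusted p = 9.4e-05). Myc, which is known to act on mitochondrial genes in growing cells, gave -0.57 (adjusted p = 0.3).

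Against arsenite normal liver, the other comparison of the tumours, 71 of the 80 subunits fell and 1, Cox6a2, which entered the test through the tumours alone, was called higher, where 31% of all genes tested were called lower and 17.2% higher. The median was -0.68, against -0.15 over all genes tested. The comparison uses the same 3 tumour arrays as the one above. By complex the counts called lower were 33 of 36, 4 of 4, 8 of 8, 11 of 17 and 15 of 15, and 12 of the 13 mtDNA-encoded subunits fell with a median of -0.78. The largest falls among subunits were those of Sdhb, with 6.57, 6.99 and 7.04 in the tumours, against 8.01, 7.96 and 8.01 in arsenite normal liver and a difference of -1.13 (SE 0.13, adjusted p = 5.6e-05), and Ndufa12 with -1.11 (adjusted p = 2.0e-05). Ndufa6 at -0.24 (adjusted p = 0.065) did not pass here. The count called lower among the 80 depended on the scaling: it was 40 with median scaling and 32 with spike-in scaling. Among all called genes the share called higher was 35.7%, against 59.5% and 50.9% with these scalings.

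In the comparisons without tumours, which share the arsenite non-tumour arrays with each other and with the first comparison, no subunit was called. Between arsenite non-tumour and arsenite normal liver none of the 80 subunits was called and none reached an unadjusted p under 0.05. None of the 18101 genes tested was called (0%) by limma, while 1238 (6.84%) had an unadjusted p under 0.05. The median difference of the 80 was 0.02, and the 75 subunits other than tissue isoforms lay between -0.08 and 0.14, with 95% bounds between -0.34 and 0.48. These values hold for the percentile scaling, after which the bright spike-in transcripts differed by a median of -0.28. The smallest p among members belonged to Ndufaf4, Atp5sl and Cox6b2. Ndufaf4 stood at 2.67, 3.0 and 2.69 in arsenite non-tumour liver, against 2.91, 3.37 and 3.16 in arsenite normal liver, a difference of -0.36 (SE 0.17, adjusted p = 0.75). Atp5sl stood at 4.08, 4.13 and 4.15 in arsenite non-tumour liver, against 3.95, 4.0 and 3.99 in arsenite normal liver, a difference of 0.14 (SE 0.08, adjusted p = 0.78). Cox6b2 stood at -1.14, -1.45 and -1.38 in arsenite non-tumour liver, against -1.01, -1.05 and -1.17 in arsenite normal liver, a difference of -0.25 (SE 0.14, adjusted p = 0.79). The groups overlapped for Ndufaf4 and Cox6b2 and did not for Atp5sl, and they lie on different slides.

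Arsenite non-tumour and control non-tumour liver differ by the exposure of the F0 grandmother and share a slide. No subunit was called or reached an unadjusted p under 0.05, where 1 of 18101 genes tested was called lower (0.00552%) and none higher (0%), with 1020 at an unadjusted p under 0.05. The median difference of the 80 was 0.00, and the 75 subunits other than tissue isoforms lay between -0.09 and 0.15, with 95% bounds between -0.37 and 0.43. These values hold for the percentile scaling, after which the bright spike-in transcripts differed by a median of -0.32. Relative to them the subunit median was 2.26, 2.62 and 1.92 in arsenite non-tumour liver, against 1.91, 1.85 and 2.05 in control non-tumour liver. The median half-width of the 95% interval over subunits was 0.22, and the lowest bound of all 75 was -0.37, above the median of -0.71 in the tumours. The smallest p belonged to Ndufa4l2, Atp5s and Ndufa11. Ndufa4l2 stood at -1.11, -0.44 and -0.98 in arsenite non-tumour liver, against -0.75, -0.27 and -0.55 in control non-tumour liver, a difference of -0.32 (SE 0.19, adjusted p = 1). Atp5s stood at -1.38, -1.22 and -1.48 in arsenite non-tumour liver, against -1.19, -1.3 and -1.15 in control non-tumour liver, a difference of -0.15 (SE 0.12, adjusted p = 1). Ndufa11 stood at 3.49, 3.76 and 3.62 in arsenite non-tumour liver, against 3.21, 3.53 and 3.67 in control non-tumour liver, a difference of 0.15 (SE 0.13, adjusted p = 1). In all 3 the groups overlapped.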

How the data were processed

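12 RNA samples were hybridised to one-colour Agilent arrays. Column-purified, DNase-treated RNA (100 ng) was labelled by the authors with Cy3, per the labels' protocols. The deposited scanner output gives each spot an intensity per the file headers, in arbitrary units, the processed signal after background subtraction, not scaled between arrays. Software versions are 10.7.3.1 in the headers and 12.0.3.1 in the submitters' processing notes. The authors' deposited value table is a linear ratio, found to be the processed signal over the array's 75th percentile, and served as an alternative. The number of arrays limits the precision.

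The log2 processed signal was scaled to the 75th percentile of each array's own spots, controls left out, with spots of a probe averaged without outlier marks. A probe was kept if 1 group or more had it well above background on each of its 3 arrays, with values on at least 10 arrays, and the brightest kept probe stood for its gene (18101 genes, of which 4507 had several probes). Of 55681 probes, 27235 took a RefSeq symbol by accession, 3581 by their own symbol and 565 by a synonym, and 24300 kept the file's name. Positions are the array annotation's, on mm9. The tests used limma 3.58.1 in R 4.3.3 (lmFit, eBayes, one mean per group over 12 arrays, 2-sided, Benjamini-Hochberg over all genes). The fit pools a gene's spread over all groups, tumours included. It was tested on simulated data of 18047 genes, with 200 changed in tumours against arsenite non-tumour. The fit recovered 53 of 100 at 0.7 log2 units and 91 of 100 at 1.5, with 10 false calls. On the real arrays 5428 genes were called lower and 3100 higher in that comparison, so these shares do not give the power for the subunits. A fold against a group with no array above background rests on signals near the floor and is an estimate, not a lower bound.

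The name rule for members and the gene lists were drawn up with earlier results of these data known, although the rule reads no value. Values are given array by array for the 4 called subunits of each complex with the smallest p, subunits called against the direction of their complex, isoform pairs, Sdha to Sdhd, and the 3 members with the smallest p where none was called. From the other lists up to 4 called genes with the smallest p could be named, and Ppargc1a, Esrra, Tfam, Nrf1, Gabpa, Hif1a, Myc, Cycs and Cs always, with other genes named after their values were seen. Equal replicate numbers of tumour and arsenite non-tumour arrays had residual correlations of 0.15, 0.14 and 0.23, so a fit of these 6 arrays with the number as a block is given where it changes a call. Between arsenite non-tumour and arsenite normal liver they were 0.07, 0.12 and 0.06, against -0.09 to 0.01 for unequal numbers. Whether equal numbers pair arrays in the other comparisons is not known. Alternatives covered scaling, background, filter, probe choice, array weights, the block and leaving out each array. 1 complex I subunit and 1 marker gene, included in the counts, are not reported here by name or drawn. Many subunit genes have processed pseudogenes, whose RNA a probe may also bind. Promoters are RefSeq's on GRCm38.p6.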

Additional observations from a re-analysis of the deposited data

How the results depend on the processing

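The fall of the members in tumours kept its direction and its count within 1.5 times of 79 under all 25 alternatives against arsenite non-tumour liver (67 with quantile normalization to 80 with probes above background on all 12 arrays), and 61 of 80 subunits were called lower in every one. Leaving out each array in turn gave 72 to 79 members called lower and 0 to 2 called higher there, and 69 to 76 lower and 0 to 2 higher against arsenite normal liver. Against arsenite normal liver the count of 76 lower went down to 43 with median scaling and 35 with spike-in scaling (an alternative chosen after seeing the data, as was the percentile of detected spots). The cause was not tested. The 7 bright spike-in transcripts differed by a median of 0.18 in tumours minus arsenite non-tumour liver and -0.1 in tumours minus arsenite normal liver. For arsenite non-tumour liver the median was -0.28 minus arsenite normal liver and -0.32 minus control non-tumour liver.

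The few higher calls, Cox6a2 among them, which entered the test through the tumours alone, were not stable. Against arsenite non-tumour liver 2 members were called higher as reported, 1 with median scaling, with probes above background on all 12 arrays, with only the 6 arrays compared or with spike-in scaling, and 0 with normexp or with the replicate block on those 6 arrays. With quantile normalization Cox7a2l, not called as reported, was called higher there. Against arsenite normal liver 1 was called higher, 2 with quantile normalization, array weights or the percentile of detected spots, and 0 with probes above background on all 12 arrays, the 6 arrays alone or the replicate block on them. The cause was not tested. With the replicate block on the 6 arrays, 71 members were called lower against arsenite non-tumour liver and 65 against arsenite normal liver, and with the block on all 12 arrays 79 and 76. Equal numbers correlated at -0.02, 0.09 and 0.03 between tumours and arsenite normal liver, against -0.08 to 0.05 for unequal numbers. Whether they pair arrays there is not known.

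With quantile normalization Cox7a2l turned to 0.24, Serpina1c to 0.04 and Ogdh to 0.04 against arsenite non-tumour liver, and Ogdh to 0.01 against arsenite normal liver, where with normexp Cd3g turned to -0.28. In the 2 comparisons without tumours the members called stayed at 0 under all 25 alternatives. The slide as a block was not run, since slide and group coincide in the tumour comparisons and the groups of the remaining within-slide comparison share their slide. Between 40.5% and 46.9% of spots were well above background on an array, which leaves dim isoforms such as Cox7b2, Cox8b and Cox8c without a test.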

Other observations

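Probes of one gene mostly moved alike. Of 30 members with several probes past the filter (72 probes), the probes of 23 differed by at most 0.15 in tumours minus arsenite non-tumour liver, with a median spread of 0.06. Atp5j, the stalk subunit F6, gave -0.64 with its bright probe, and its other probe was well above background on 9 arrays, with tumour signals under the dimmest that were, so that no difference is given for it. Atp5g1 gave -0.84 and -0.3, Cox7c -0.76 to -0.47 and Ndufb11 -0.75 to -0.49. Ndufv3, a complex I subunit with known splice forms, gave -0.57 to -0.13 over 3 probes, of which 2 were called lower. No conclusion on transcripts was tested.

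Values of genes that share a transcript in mtDNA are given side by side, and the difference between them was not tested. mt-Nd4l and mt-Nd4 are read from one mRNA and gave -1.07 and -0.68, and mt-Atp8 and mt-Atp6, read from another, gave -1.05 and -0.87, all 4 called lower in tumours minus arsenite non-tumour liver.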
